A study of Mus musculus with 18 samples.

Results

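Host-dependent expression was compared between 2 fractions of the same kind of tumour, to find the genes whose host effect in sorted tumour cells differed from that in the unsorted tumour. The tumours grew from GL261 GFP, a mouse glioma line that carries green fluorescent protein, in C57BL/6 mice that were either wild type (WT) or Pfp/Rag2-/-. Per the labels, tumours were taken from symptomatic mice, 6 of each host, and digested with collagenase. One fraction was sorted by flow cytometry as GFP+ cells, and the other was left unsorted and holds tumour and host cells together. Messenger RNA of each host and fraction was sequenced in triplicate, which gives 12 of the 18 libraries of the series in 4 groups: WT GFP+, Pfp/Rag2-/- GFP+, WT unsorted and Pfp/Rag2-/- unsorted. All 4 groups carry the same injected line, and the sorted groups alone went through the sorter. Whether 1 mouse or several made a library, and which unsorted library shares a mouse with which sorted one, is not in the labels. A p-value here thus covers the spread between libraries and no more.

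Levels are normalized counts, that is, read counts divided by 1 size factor per library. The host effect is the difference WT minus Pfp/Rag2-/- in log2 of the normalized count plus 1. The interaction is the host effect in GFP+ cells minus the host effect in unsorted tumours, so a positive value says that the WT host stood relatively higher in the GFP+ cells. Of 48795 genes in the table, 16161 reached a normalized count of 10 in at least 3 of the 12 libraries and were tested with limma, and genes with an adjusted p (Benjamini-Hochberg) under 0.05 were called.

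Perforin, the product of Prf1, is the pore-forming protein of cytotoxic T cells and natural killer (NK) cells, and Rag2 is needed to assemble the receptors of T and B cells, so Pfp/Rag2-/- mice lack mature T and B cells and their NK cells lack perforin. A tumour in brain tissue is a mixture of malignant cells with macrophages, microglia, vessel cells and lymphocytes, and an unsorted sample reports the sum of their transcripts. Immediate early genes such as Fos, Fosb and Egr1 are transcription factor genes that cells switch on within a short time of a stimulus and that need no new protein synthesis. Their products include the subunits of AP-1, a dimer of Fos and Jun proteins that binds DNA at the motif TGANTCA.

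Promoter windows are shown for 3 of the genes on which the results turn: Fosb, an AP-1 subunit gene itself, Klf9, which had a large positive interaction and carries an AP-1 match, and Mmp13, an AP-1 target by textbook knowledge and among the most negative interactions. Each runs from 250 bases before to 50 bases after the start of transcription, from RefSeq on GRCm38.p6. Fosb lies at chr7:19309996-19310295 on the minus strand, Klf9 at chr19:23140976-23141275 on the plus strand and Mmp13 at chr9:7272264-7272563 on the plus strand. Capitals mark the AP-1 match, which starts 89 bases before the start site in Klf9 and 35 bases before it in Mmp13. The Fosb window holds no AP-1 match. The 3 windows were picked and do not stand for the called genes as a set.
Fosb: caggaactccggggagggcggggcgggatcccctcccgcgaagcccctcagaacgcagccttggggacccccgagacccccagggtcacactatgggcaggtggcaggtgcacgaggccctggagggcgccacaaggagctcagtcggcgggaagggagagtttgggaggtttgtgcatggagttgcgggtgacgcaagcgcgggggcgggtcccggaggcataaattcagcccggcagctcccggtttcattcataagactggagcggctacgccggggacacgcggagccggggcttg
Klf9: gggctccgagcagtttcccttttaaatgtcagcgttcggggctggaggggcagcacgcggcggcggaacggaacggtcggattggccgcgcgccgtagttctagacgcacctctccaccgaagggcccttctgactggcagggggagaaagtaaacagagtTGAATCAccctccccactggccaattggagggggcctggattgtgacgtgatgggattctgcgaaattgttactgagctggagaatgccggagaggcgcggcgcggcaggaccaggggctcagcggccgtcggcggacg
Mmp13: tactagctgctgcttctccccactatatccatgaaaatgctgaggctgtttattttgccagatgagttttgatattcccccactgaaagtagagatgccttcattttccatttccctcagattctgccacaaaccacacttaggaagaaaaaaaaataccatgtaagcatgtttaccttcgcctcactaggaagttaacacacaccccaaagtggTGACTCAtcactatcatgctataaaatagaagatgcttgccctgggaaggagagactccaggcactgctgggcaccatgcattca

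Both strands of these windows were searched for AP-1 (TGANTCA), the cyclic AMP response element (TGACGTCA), the E-box CACGTG and the CArG box of serum response factor, motifs that do not contain one another. Of all 32851 RefSeq windows of this length, 7.81% held an AP-1 match, 1.79% the cyclic AMP response element, 7.15% the E-box and 1.63% a CArG box. A match is a run of letters and not a measured binding site. Windows were matched for 82 of the 115 genes with a called positive interaction and 25 of the 36 with a negative one. Over all genes tested, 11729 of 16128 symbols had a window. An AP-1 match was held by 2 of the 82 positive genes (2.44%) and 2 of the 25 negative ones (8%). The share was 6.55% over the 11729. A difference between these shares was not tested, and genes without a window are not covered.

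Depth was even, at 19172814 to 20631674 reads per library, and libraries of a group correlated across genes at Pearson's r of 0.965 to 0.992. Prf1 stood at 109, 99.0 and 139 in WT unsorted and at 7.11, 13.6 and 16.2 in Pfp/Rag2-/- unsorted libraries. Among GFP+ libraries 1, 2 and 3 it stood at 118, 4.75 and 10.1 in WT and at 117, 5.51 and 0.921 in Pfp/Rag2-/- hosts, so library 1 of either host stood apart. Cd3e, a T cell receptor chain gene, was at 33.5 in WT GFP+ library 1 and at 0.913 in Pfp/Rag2-/- GFP+ library 1. Rag2 was listed at 0 in the 6 WT libraries, at 4.57, 0 and 0 in Pfp/Rag2-/- GFP+ libraries and at 4.44, 6.34 and 3.61 in Pfp/Rag2-/- unsorted libraries. Counts cover whole genes, parts outside a deletion included, so they check the host labels only in part. The summed level of 13 cytotoxic effector genes was 3450 and 3639 in the GFP+ libraries numbered 1 and 158 to 391 in the other 4, and that of 22 pan-macrophage genes was 21726 and 20205 against 3655 to 10983.

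The host effect differed between the fractions for 151 genes (0.934% of those tested), of which 115 had a positive interaction (0.712%) and 36 a negative one (0.223%). Positive interactions were mostly small, from 0.40 to 1.89 on the log2 scale with a median of 0.73, and negative ones ran from -4.99 to -0.35 with a median of -0.72. The median over all genes was -0.01. Most of the positive genes were not called in GFP+ cells and lower in unsorted WT tumours (66 of 115). Another 26 were higher in WT GFP+ cells and lower in unsorted WT tumours, and 14 were higher in WT GFP+ cells and not called in unsorted tumours. Of the 36 negative genes, 14 were higher in unsorted WT tumours and not called in GFP+ cells. Another 10 were lower in WT GFP+ cells and not called in unsorted tumours, and 6 were lower in GFP+ cells and higher in unsorted tumours of WT hosts. In the same fit the host effect itself was called for 4009 genes in GFP+ cells (24.8%) and for 5462 in unsorted tumours (33.8%). With quantile normalization the split between positive and negative calls was 157 against 113.

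**Figure D1:**
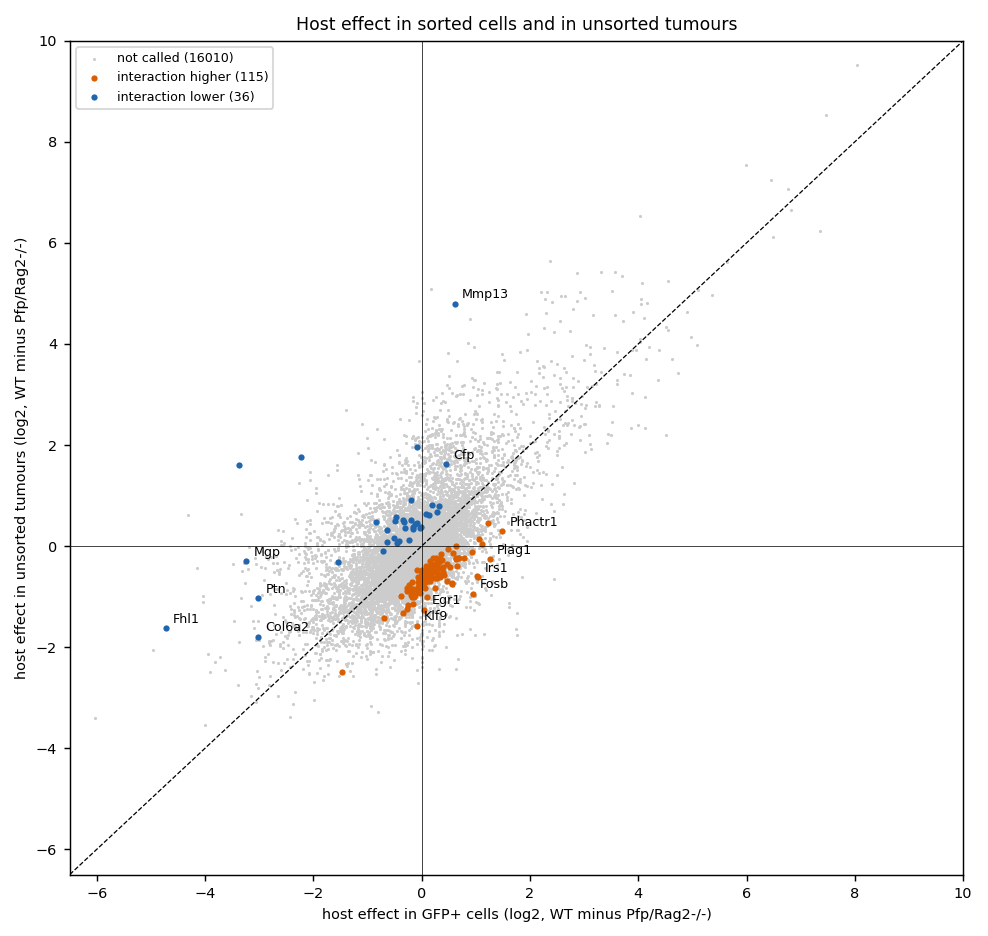
Host effect of each of the 16161 genes in GFP+ cells (x axis) and in unsorted tumours (y axis), as log2 WT minus Pfp/Rag2-/-; the dashed line marks equal effects and colours mark the genes called for the interaction. Positive interactions lie below the line, mostly within 2 log2 units of 0 on both axes, and negative ones lie above it, with Mmp13 highest and Fhl1 farthest left among the labelled genes.

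These calls lay close to the threshold. The lowest adjusted p was 0.0061, for Trip11, and no other gene was under 0.02. Pogz (interaction 0.51, adjusted p = 0.0492) was the last gene called, and Dpysl3 (0.63, 0.0502) and Dnajb1 (0.97, 0.0508) were the first outside. Leaving out any 1 library kept the sign of every named gene, with 1 gene or none called without WT GFP+ library 1 or 2, Pfp/Rag2-/- GFP+ library 1 or 3, or any Pfp/Rag2-/- unsorted library, 3 without WT unsorted library 3 and 39 without Pfp/Rag2-/- GFP+ library 2. It called 758 genes without WT GFP+ library 3, 538 without WT unsorted library 2 and 1105 without WT unsorted library 1. Of the 151 genes, 112 were called in 3 of the 12 such fits, 36 in 4, Nav2 and Spry4 in 5 and Trip11 in 10. Without both GFP+ libraries numbered 1 limma called 0 genes (lowest adjusted p = 0.113, with 2459 at an unadjusted p under 0.05, against 3212 in the full set). The named genes called in the full set kept their sign there and had adjusted p from 0.113 to 0.159, with estimates such as 1.71 for Fosb, 1.46 for Irs1, -4.16 for Mmp13 and -2.74 for Mgp, close to those of the full set given below. On the recovered reads of all 12 libraries edgeR called 70 genes (0.433%), 50 positive (0.309%) and 20 negative (0.124%). DESeq2 gave an adjusted p to 12652 genes and called 1216 of them (9.61%), 782 positive (6.18%) and 434 negative (3.43%). The DESeq2 shares of all genes given below are over these 12652. List counts are out of all list genes tested, some of which may lack an adjusted p and could not be called.

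**Figure D2:**
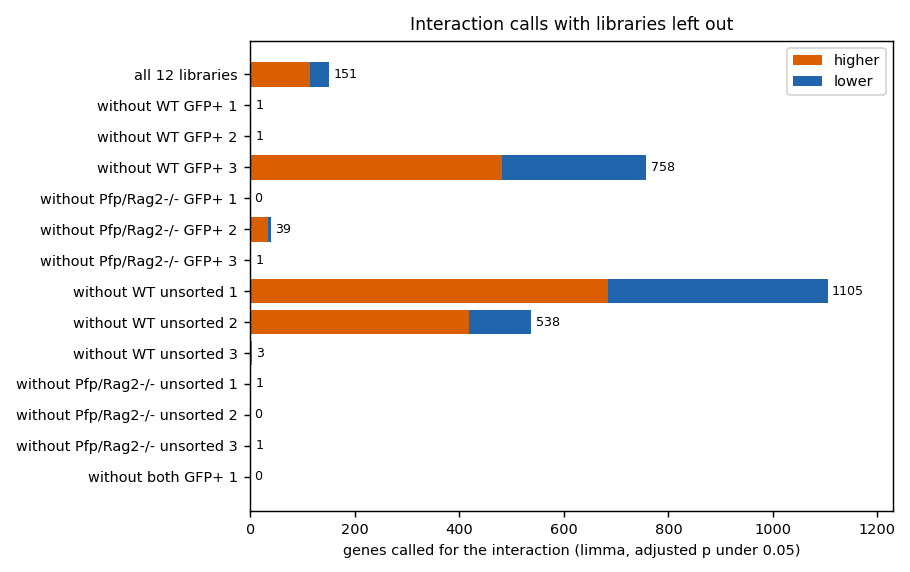
Number of genes called for the interaction (x axis) with all 12 libraries and with the named library left out (bars, positive in orange and negative in blue, totals printed beside them). The count ranges from 0 without Pfp/Rag2-/- GFP+ library 1 to 1105 without WT unsorted library 1.

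Libraries of the same number deviated together in the GFP+ groups of both hosts (correlations of 0.577, 0.454 and 0.121 for numbers 1, 2 and 3) and not in the unsorted groups. Among GFP+ pairs of unlike number, WT 2 with Pfp/Rag2-/- 3 correlated at 0.386, above the pair numbered 3. The other unlike pairs ran from -0.550 to 0.0129. These values set number 1 apart and do not clearly tell numbers 2 and 3 from each other. With the number as a block in the GFP+ libraries, paired by correlation alone, 241 genes were called (1.49%), 144 positive (0.891%) and 97 negative (0.6%), and 130 of the 151 genes were among them.

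Fosb had the highest interaction of the called genes, and 3 other transcription factor genes, Plag1, Klf9 and Egr1, were among the 7 highest named. Fosb, an AP-1 subunit (ENSMUSG00000003545, chromosome 7, 19302696 to 19310051), stood at 24320, 21720 and 10150 in WT GFP+ and at 9817, 9435 and 8093 in Pfp/Rag2-/- GFP+ libraries. In unsorted libraries it stood at 101, 86.4 and 87.1 in WT and at 190, 170 and 168 in Pfp/Rag2-/- hosts. The hosts did not overlap in either fraction, and their order was opposite: WT was the higher host in the sorted cells, 1.93-fold, and the lower host in the unsorted tumours, where Pfp/Rag2-/- was 1.92-fold higher. The interaction was 1.89 (SE 0.36, adjusted p = 0.0394). Egr1, a zinc finger factor of the same immediate early class (ENSMUSG00000038418), was at 18390, 16730 and 11340 in WT GFP+ libraries and at 14110, 15500 and 14340 in Pfp/Rag2-/- ones, values that overlapped. In unsorted tumours Egr1 was at 1285, 1190 and 996 in WT and at 2353, 3227 and 2736 in Pfp/Rag2-/- hosts, with no overlap and WT the lower host. Its interaction was 1.31 (SE 0.24, adjusted p = 0.0381), made by a host effect of 0.05 in GFP+ cells and -1.26 in unsorted tumours.

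Most other immediate early genes had a positive interaction without a call. Of 24 listed and tested, 2 were called positive (Fosb and Egr1) and 0 negative, where 0.712% and 0.223% of all genes were, and 21 of the 24 interactions were above 0, with a median of 0.71 (0.64 without both GFP+ libraries numbered 1) against -0.01 over all genes. At an unadjusted p under 0.05, 12 were positive and 1 negative, where 11.3% and 8.62% of all genes were. The negative one was the cytokine signalling inhibitor Socs3 (interaction -0.77, adjusted p = 0.0874). DESeq2 called 7 positive and 1 negative (6.18% and 3.43% of all genes), and edgeR 0. With the GFP+ libraries paired, Fos (interaction 0.96, adjusted p = 0.0325, 0.0527 unpaired) and the phosphatase gene Dusp1 (0.78, 0.038, 0.0824 unpaired) were called as well. Klf4, a Krüppel-like factor, had the most positive estimate of the list, 2.08, and was not called (adjusted p = 0.0676). The summed level of the 24 genes ranged from 136054 to 240957 over the 6 GFP+ libraries and from 29547 to 40562 over the 6 unsorted ones, with 0 of the 24 at 0 in any of them. It was 693294 to 761406 in the sorted GFP- cells of WT tumours and 34980 to 35849 in the cultured line, which the labels also give as sorted. In the tumour libraries the passage through the sorter and the cell fraction cannot be told apart.

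**Figure D3:**
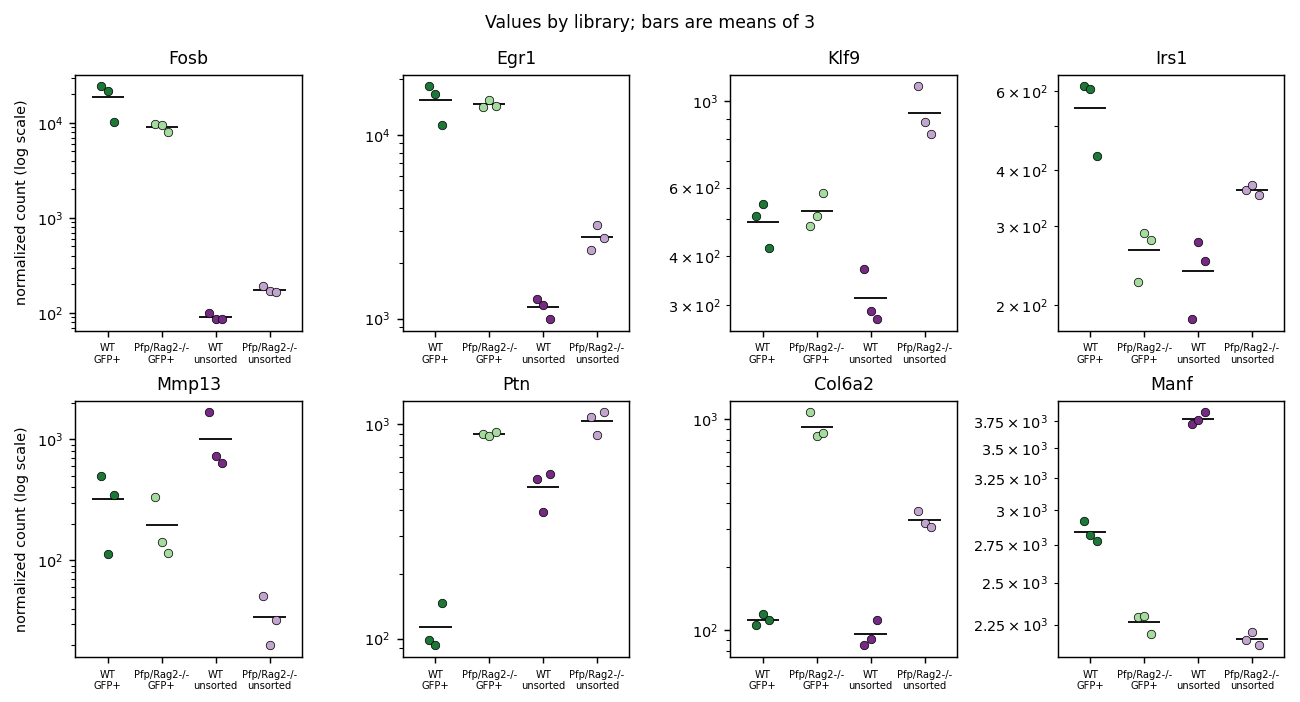
Normalized counts (y axes, log scale) of 8 genes in the 3 libraries of each group (points) with the mean of 3 (bars). Fosb is at 8093 or more in all GFP+ libraries and at 190 or less in all unsorted ones, and Mmp13 separates the hosts in the unsorted tumours and not in the GFP+ cells.

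Klf9, a Krüppel-like factor known as a target of glucocorticoid and thyroid hormone receptors (ENSMUSG00000033863, chromosome 19, 23141226 to 23168134), stood at 509, 546 and 420 in WT GFP+ and at 479, 509 and 580 in Pfp/Rag2-/- GFP+ libraries. Unsorted libraries held 372, 290 and 277 in WT and 1091, 885 and 824 in Pfp/Rag2-/- hosts. The GFP+ values overlapped, while the unsorted Pfp/Rag2-/- tumours were 2.98-fold higher than the WT tumours. The interaction was 1.48 (SE 0.21, adjusted p = 0.0247). Plag1, a growth-promoting zinc finger factor (ENSMUSG00000003282, chromosome 4, 3900996 to 3938423), showed the reverse arrangement. It stood at 659, 630 and 565 in WT and at 200, 300 and 282 in Pfp/Rag2-/- GFP+ libraries, 2.39-fold higher in WT, and at 217, 291 and 203 against 265, 304 and 273 in unsorted tumours, where the hosts overlapped. Its interaction was 1.52 (SE 0.24, adjusted p = 0.0265). Cry2, a repressor of the circadian clock, had an interaction of 1.31 (SE 0.26, adjusted p = 0.0472), with means of 514 against 342 in GFP+ cells and 302 against 515 in unsorted tumours of WT and Pfp/Rag2-/- hosts. Zfpm2, a cofactor of GATA factors (1.07), and Bcl9l, a coactivator of beta-catenin (1.06), were also called positive (adjusted p = 0.0304 and 0.0391).

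The adaptor gene Irs1, the cytokine gene Il33 and the phosphatase gene Dusp4 were called in the same direction. Irs1, the adaptor that links the insulin and IGF1 receptors to PI3 kinase (ENSMUSG00000055980, chromosome 1, 82233101 to 82291416), was at 615, 605 and 429 in WT and 226, 290 and 280 in Pfp/Rag2-/- GFP+ libraries. In unsorted tumours it was at 186, 276 and 251 in WT and 362, 371 and 353 in Pfp/Rag2-/- hosts. The hosts did not overlap in either fraction and their order was opposite, with an interaction of 1.66 (SE 0.24, adjusted p = 0.0247). Il33, an alarmin released from damaged cells (ENSMUSG00000024810, chromosome 19, 29925114 to 29960718), was at 206, 177 and 150 against 93.2, 84.5 and 82.9 in GFP+ cells and at 181, 113 and 186 against 285, 211 and 220 in unsorted tumours. WT was again the higher host in GFP+ cells and the lower one in unsorted tumours (interaction 1.61, SE 0.29, adjusted p = 0.0346). Dusp4, a phosphatase that switches off MAP kinases, was at 1128, 1155 and 868 against 1009, 1001 and 909 in GFP+ cells, which overlapped, and at 560, 513 and 411 against 899, 1140 and 950 in unsorted tumours, which did not (interaction 1.11, SE 0.20, adjusted p = 0.0328).

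Phactr1, a regulator of actin and of protein phosphatase 1, was at 1541, 1457 and 1445 in WT and 502, 522 and 555 in Pfp/Rag2-/- GFP+ libraries, 2.81-fold higher in WT. In unsorted tumours its values of 1347, 1596 and 1800 against 1779, 1061 and 1125 overlapped. The interaction was 1.20 (SE 0.24, adjusted p = 0.0448, and 0.0507 with the GFP+ libraries paired, where the call is lost). Nav2, a neuron navigator gene of the cytoskeleton (chromosome 7, 48908716 to 49610090), had the same form, at 2484, 2467 and 2100 against 1012, 1111 and 1134 in GFP+ cells and 1263, 1425 and 1545 against 1338, 1312 and 1426 in unsorted tumours (interaction 1.06, SE 0.13, adjusted p = 0.0231). Its paralogue Nav3 (0.99) and Hmcn1, which encodes the matrix protein hemicentin (1.15), were higher in WT GFP+ cells and lower in WT unsorted tumours, with adjusted p of 0.0423 and 0.0319.

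Trip11, a Golgi scaffold gene, is outside the rule for named genes and was picked after its values were seen, because its call was the firmest. It was at 1186, 1257 and 1167 in WT and 1161, 1151 and 1190 in Pfp/Rag2-/- GFP+ libraries, which overlapped, and at 960, 970 and 943 against 1554, 1641 and 1606 in unsorted tumours, which did not (interaction 0.78, SE 0.08, adjusted p = 0.0061). Among the other positive genes, picked in the same way, were the feedback inhibitors of MAP kinase signalling Spry4 (0.68) and Spred2 (0.53), the forkhead factor Foxo3 (0.74), the mTORC2 subunit Rictor (0.58), the kinase Gsk3b (0.55) and the circadian activator Clock (0.54). For each of these 6 the host effect in unsorted tumours was negative, from -0.80 for Foxo3 to -0.37 for Gsk3b, and that in GFP+ cells lay between -0.23 for Clock and 0.17 for Gsk3b.

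Mmp13, Fhl1, Mgp and Ptn had the lowest interactions of the named genes that were called. Mmp13, the collagenase MMP13 (ENSMUSG00000050578, chromosome 9, 7272514 to 7283331), was at 492, 113 and 349 in WT and 332, 141 and 116 in Pfp/Rag2-/- GFP+ libraries. Unsorted libraries held 1662, 730 and 641 in WT and 50.6, 19.9 and 32.5 in Pfp/Rag2-/- hosts. The GFP+ values overlapped, and the unsorted WT tumours were 27.8-fold higher than the Pfp/Rag2-/- tumours. The interaction was -4.19 (SE 0.83, adjusted p = 0.0451). Ptn, which encodes the growth factor pleiotrophin (ENSMUSG00000029838, chromosome 6, 36714929 to 36810220), was at 98.6, 93.1 and 146 in WT and 901, 884 and 920 in Pfp/Rag2-/- GFP+ libraries. In unsorted tumours it was at 554, 391 and 588 against 1078, 895 and 1135. WT was the lower host in both fractions, 8.10-fold in GFP+ cells and 2.05-fold in unsorted tumours (interaction -1.99, SE 0.26, adjusted p = 0.0231).

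Fhl1, a LIM-domain protein gene (ENSMUSG00000023092, chromosome X, 56731787 to 56793346), was at 12.5, 19.95 and 44.2 against 587, 538 and 743 in GFP+ cells and at 96.0, 126 and 144 against 394, 442 and 298 in unsorted tumours. It was lower in WT in both fractions, by more in the GFP+ cells (interaction -3.10, SE 0.51, adjusted p = 0.0272). Col6a2, a collagen VI chain (chromosome 10, 76595762 to 76623630), was at 105, 119 and 112 against 1075, 829 and 855 in GFP+ cells and at 84.9, 90.9 and 112 against 368, 323 and 309 in unsorted tumours (interaction -1.22, SE 0.19, adjusted p = 0.0265). Its WT level was alike in the fractions, and the Pfp/Rag2-/- level was higher in the GFP+ cells. Mgp, matrix Gla protein, an inhibitor of calcification, was at 17.2, 8.55 and 39.6 against 225, 208 and 125 in GFP+ cells, and its unsorted values of 102, 97.2 and 137 against 147, 147 and 120 overlapped (interaction -2.93, SE 0.60, adjusted p = 0.0478). Vwa1, a matrix protein of basement membranes, was lower in WT in both fractions without overlap, and its unsorted host effect of -0.31 was not called, with means of 210 against 614 in GFP+ cells and 455 against 567 in unsorted tumours (interaction -1.24, SE 0.21, adjusted p = 0.0312).

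Of 32 extracellular matrix genes listed and tested, 2 were called negative (Mmp13 and Col6a2) and 0 positive, against 0.223% and 0.712% of all genes. Their mean summed level was lower in WT in both fractions, 98988 against 148490 in GFP+ cells and 77921 against 116299 in unsorted tumours. The median interaction of the 32 genes was -0.11, with 16 below 0 and 16 above. At an unadjusted p under 0.05, 13 were negative and 3 positive, where 8.62% and 11.3% of all genes were, DESeq2 called 9 negative and 2 positive (3.43% and 6.18%), and edgeR 1 negative (0.124%). With the GFP+ libraries paired, Mmp14, a membrane-bound metalloproteinase, was called too (interaction -1.09, adjusted p = 0.0336, 0.0583 unpaired). The summed level of 17 pericyte and fibroblast genes, cells that make matrix, was 12371 to 14079 in WT GFP+, 26200 to 30157 in Pfp/Rag2-/- GFP+, 12125 to 12498 in WT unsorted and 20087 to 22610 in Pfp/Rag2-/- unsorted libraries, and 7896 to 8417 in the cultured line. The pericyte channel gene Kcnj8 was at 0 in WT GFP+ library 2, and no other of the 17 was at 0 in any of the 12 tumour libraries. Limma called 0 of the 16 that were tested (median interaction -1.47, and -1.05 without both GFP+ libraries numbered 1, with 5 negative and 0 positive at an unadjusted p under 0.05), edgeR 0 and DESeq2 4 negative. Dcn, the proteoglycan decorin of fibroblasts, was at 2.87, 0.95 and 3.68 against 98.6, 121 and 85.7 in GFP+ cells and at 11.99, 11.7 and 48.8 against 122, 83.3 and 56.8 in unsorted tumours (interaction -2.89, adjusted p = 0.0736). The part of such cells in the matrix results was not tested, and in bulk RNA fewer cells of a type and less RNA per cell cannot be told apart.

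Another 6 genes, of which 5 are described here, were called in opposite directions in the fractions, with WT the lower host in GFP+ cells and the higher one in unsorted tumours. Slc43a2, a transporter of large neutral amino acids, was at 238, 169 and 283 against 383, 427 and 408 in GFP+ cells and at 517, 602 and 535 against 429, 362 and 395 in unsorted tumours (interaction -1.33, SE 0.22, adjusted p = 0.0304). The hosts did not overlap in either fraction. Cox17, a copper chaperone of cytochrome c oxidase (-1.05), Slc25a45, of the mitochondrial carrier family (-0.98), and Fam136a (-0.67) had the same arrangement, with adjusted p of 0.0437, 0.0304 and 0.0472. The sialidase gene Neu4 was low throughout, at 0, 0 and 1.84 against 8.22, 7.35 and 2.76 in GFP+ cells and at 23.1, 27.9 and 34.8 against 6.22, 10.9 and 6.31 in unsorted tumours, so the size of its interaction depends on the constant added before the log. The same holds for Cyp1b1, a cytochrome P450 gene with the lowest estimate of all called genes (-4.99), which had 2.87, 0 and 0 in WT GFP+ libraries and 35.1, 81.9 and 74.9 in WT unsorted ones. Neu4 and Cyp1b1 are outside the rule for named genes and were picked after their values were seen.

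Manf, a secreted protein of the endoplasmic reticulum stress response (ENSMUSG00000032575, chromosome 9, 106838312 to 106891979), was higher in WT in both fractions and by more in the unsorted tumours. It was at 2920, 2818 and 2778 against 2292, 2299 and 2198 in GFP+ cells and at 3724, 3755 and 3830 against 2164, 2210 and 2137 in unsorted tumours. WT was 1.25-fold higher in the former and 1.74-fold higher in the latter, and the interaction of -0.47 had the smallest standard error of the named genes (SE 0.07, adjusted p = 0.0247). Manf was the 1 negative call among 23 genes of amino acid and unfolded protein stress, with 0 positive and a median of 0.03, where 0.223% of all genes were called negative. At an unadjusted p under 0.05, 5 of the 23 were positive and 6 negative (11.3% and 8.62% of all genes), and DESeq2 called 3 and 5 (6.18% and 3.43%). With the GFP+ libraries paired, Ddit3, the stress factor CHOP, was called positive as well (0.79, adjusted p = 0.0468, 0.0655 unpaired). Other negative genes, picked after their values were seen, were Ppid, a cyclophilin (-0.61), Erp29, a chaperone of the endoplasmic reticulum (-0.55), Bax, which opens mitochondria in apoptosis (-0.56), Srm, spermidine synthase (-0.47), and Uqcrfs1, the Rieske subunit of respiratory complex III (-0.51).

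Cfp, Ccl25 and Nectin4 were also called negative. Cfp encodes properdin, which stabilises the convertase of the alternative complement pathway. It was at 297, 285 and 263 against 255, 168 and 205 in GFP+ cells and at 324, 310 and 404 against 109, 107 and 116 in unsorted tumours. WT was 3.08-fold higher in the unsorted tumours, and the GFP+ host effect of 0.45 was not called (interaction -1.18, SE 0.22, adjusted p = 0.0381). Ccl25, a chemokine best known from thymus and gut, was at 264, 207 and 247 against 272, 307 and 327 in GFP+ cells and at 293, 288 and 319 against 199, 235 and 195 in unsorted tumours (interaction -0.86, SE 0.17, adjusted p = 0.0472, and 0.0514 with the GFP+ libraries paired, where the call is lost). Nectin4, an adhesion molecule, was at 68.0, 62.7 and 75.5 against 83.1, 77.2 and 75.5 in GFP+ cells and at 138, 131 and 153 against 68.4, 71.6 and 83.9 in unsorted tumours (interaction -1.10, SE 0.21, adjusted p = 0.0411). Cfp and Ccl25 were the only calls among 17 complement genes (median -0.54) and 22 chemokines tested (median -1.004), with 0 positive calls in either list, where 0.223% of all genes were called negative. Without both GFP+ libraries numbered 1 the medians were -0.43 and -0.62, and with edgeR -0.67 and -1.61. At an unadjusted p under 0.05, 3 complement genes and 5 chemokines were negative and 1 and 0 positive (8.62% and 11.3% of all genes). With the GFP+ libraries paired, the chemokine gene Cxcl16 was called negative (-2.13, adjusted p = 0.0201, 0.197 unpaired).

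Lymphocyte and myeloid lists had negative medians with few or no called genes. The median interaction was -2.12 for 29 T cell genes, with host effects of 0.85 in GFP+ cells and 2.84 in unsorted tumours, -2.40 for 12 cytotoxic effector genes (0.63 and 3.11) and -1.94 for 11 NK cell genes (-0.69 and 1.60). Limma, edgeR and DESeq2 called 0 genes of these 3 lists. DESeq2 gave no adjusted p to Prf1, a cytotoxic effector gene, and so could not call it. At an unadjusted p under 0.05, 3, 1 and 0 genes were negative and 0 positive, where 8.62% and 11.3% of all genes were. The median standard error of an interaction was 1.28, 1.54 and 1.73 in these lists, against 0.21 over all genes. Gzmb, the killer cell protease granzyme B, shows the form, at 817, 36.1 and 93.0 against 711, 27.6 and 17.5 in GFP+ cells and at 519, 672 and 808 against 41.8, 35.3 and 49.6 in unsorted tumours. GFP+ library 1 of both hosts stood near the unsorted WT level, and libraries 2 and 3 stood far below it. With the GFP+ libraries paired, Cd3g was called negative among the T cell genes, and Gzmb (adjusted p = 0.03), Gzmc (0.0224), Ctsw (0.0396) and Ifng (0.0235) among the cytotoxic effectors. Without both libraries numbered 1 the medians were -2.01, -1.97 and -1.54, and with edgeR -2.25, -3.10 and -3.14.

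Macrophage genes repeated this arrangement at a smaller size. All 22 pan-macrophage genes had an interaction below 0, with a median of -0.95 (-0.58 without both libraries numbered 1), and the monocyte-derived macrophage list had a median of -1.41 (-1.18 without them). Limma and edgeR called 0 genes of either list, and DESeq2 called 0 and 1 negative (3.43% of all genes). At an unadjusted p under 0.05, 0 of 22 and 1 of 17 genes were negative and 0 positive, where 8.62% and 11.3% of all genes were. Csf1r, the receptor that macrophages and microglia need to survive, was at 1045, 258 and 581 against 1132, 194 and 181 in GFP+ cells and at 1872, 2649 and 2899 against 934, 745 and 766 in unsorted tumours (interaction -0.93, adjusted p = 0.598). With the GFP+ libraries paired, Lyz2 was called among the pan-macrophage genes and Ccr2, Il1b, Ms4a7 and Plac8 among the monocyte-derived ones, all negative.

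The endothelial list had medians of opposite sign in the fractions, with a median host effect of -1.55 in GFP+ cells and 0.41 in unsorted tumours and a median interaction of -1.78. Limma called 0 of 20, with 10 negative and 0 positive at an unadjusted p under 0.05 (8.62% and 11.3% of all genes), edgeR called 0 and DESeq2 2 negative (3.43%). Kdr, a VEGF receptor, was at 21.1, 18.1 and 94.9 against 263, 100 and 108 in GFP+ cells and at 269, 490 and 429 against 232, 198 and 415 in unsorted tumours (interaction -2.58, adjusted p = 0.121). Hosts did not overlap for Kdr in the GFP+ cells and did overlap in the unsorted tumours. Without both GFP+ libraries numbered 1 the list median was -0.86. The host effect in GFP+ cells was called lower in WT for 9 of the 20 and higher for 2 (12.8% and 12% of all genes). The summed level of the 20 genes there had the higher mean in WT, 6334 against 4504. Its libraries overlapped, at 5743 to 7275 against 3678 to 6109. In the cultured line the sum was 9445 to 9849.

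Limma called no gene of the interferon and class I antigen presentation lists, whose host effects were in the same direction in both fractions by their medians. MHC class I presentation had a median host effect of 1.38 in GFP+ cells and 1.60 in unsorted tumours (median interaction -0.13, 24 genes), and the interferon-gamma response 2.59 and 2.39 (0.26, 34 genes). The type I interferon-stimulated list had negative medians, -0.12 and -0.37 (0.17, 36 genes). Its host effect was called higher in WT for 9 genes and lower for 9 in GFP+ cells (12% and 12.8% of all genes). In unsorted tumours it was called higher for 4 and lower for 17 (15.4% and 18.4%). For the interaction limma called 0 genes of any of these lists. At an unadjusted p under 0.05 they had 0, 9 and 10 positive and 2, 2 and 2 negative genes, where 11.3% and 8.62% of all genes were. Of the type I genes 26 of 36 had an interaction above 0. DESeq2 called 0, 3 and 4 positive and 1, 1 and 0 negative (6.18% and 3.43% of all genes), and edgeR called 0. Psmb9, an immunoproteasome subunit, was at 3784, 3562 and 3712 against 732, 544 and 621 in GFP+ cells and at 4601, 4549 and 4693 against 627, 631 and 649 in unsorted tumours. Its interaction of -0.31 (SE 0.12) was not called (adjusted p = 0.205), which does not show equal effects. Cd74, the class II invariant chain, was at 18990, 15450 and 12940 against 6204, 400 and 330 in GFP+ cells and at 18160, 30610 and 32860 against 812, 723 and 1173 in unsorted tumours. The MHC class II median of -0.77 (11 genes, 0 called by limma, edgeR and DESeq2, 0 at an unadjusted p under 0.05) was 0.28 without both libraries numbered 1 and -2.15 and -2.13 in the edgeR and DESeq2 fits. Cholesterol synthesis genes all had an interaction below 0 (19 of 19, median -0.40, and -0.68 without both libraries numbered 1), and limma called 0 of them, with 3 negative at an unadjusted p under 0.05 (8.62% of all genes), edgeR 0 and DESeq2 1 negative (3.43%). These genes share the same 12 libraries and are not separate replicates, and their median standard error was 0.34. Their summed level overlapped between hosts in unsorted tumours, at 19327, 36224 and 35838 in WT against 25815, 21372 and 20832. It also overlapped in GFP+ cells, at 24192 to 32928 against 25963 to 35161.

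**Figure D4:**
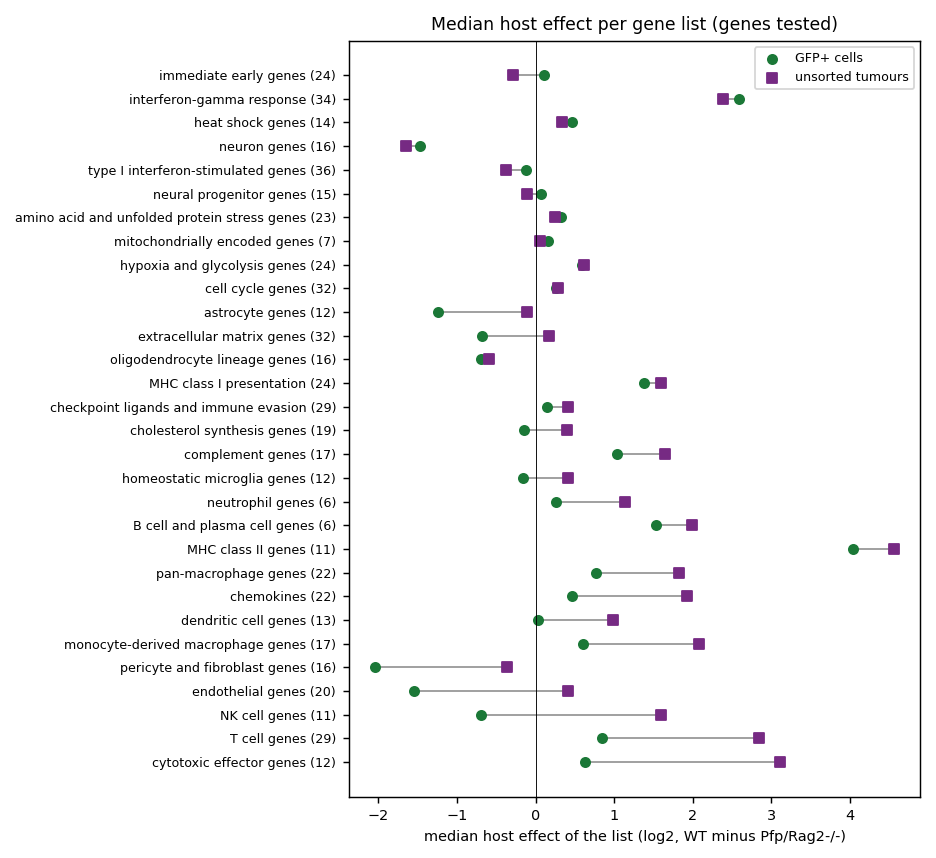
Median host effect (x axis, log2 WT minus Pfp/Rag2-/-) of each of the 30 gene lists in GFP+ cells (circles) and unsorted tumours (squares), ordered by the median interaction, with the number of genes tested in brackets. Cytotoxic, T cell and NK cell genes show the widest gaps, and immediate early genes are at the top with GFP+ above unsorted.

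Transcript length, which the fit did not use, differed between the called sets. Genes with a positive interaction had a median exon length of 6598 bases and those with a negative one 2206, against 3161 over all genes tested with a length, and 111 of the 115 positive genes and 9 of the 36 negative ones were longer than that median. Over 5 equal groups of genes by length the median interaction went from -0.18 in the shortest (median 1147 bases) to 0.20 in the longest (7054 bases). The host effect in unsorted tumours ran from 0.16 to -0.25 over these groups, and that in GFP+ cells stayed between -0.01 and -0.04. Positive calls numbered 0, 2, 6, 30 and 77 from the shortest to the longest group, and negative calls 12, 8, 9, 5 and 2. The level of the longest against the shortest group, per library and relative to the mean of the 12, was -0.44, 0.05 and -0.10 in WT unsorted libraries 1, 2 and 3 and 0.22, 0.23 and 0.26 in Pfp/Rag2-/- unsorted libraries. All 6 GFP+ libraries lay between -0.08 and -0.01. WT unsorted library 1 stood apart at the low end, and all Pfp/Rag2-/- unsorted libraries stood above every other library.

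**Figure D5:**
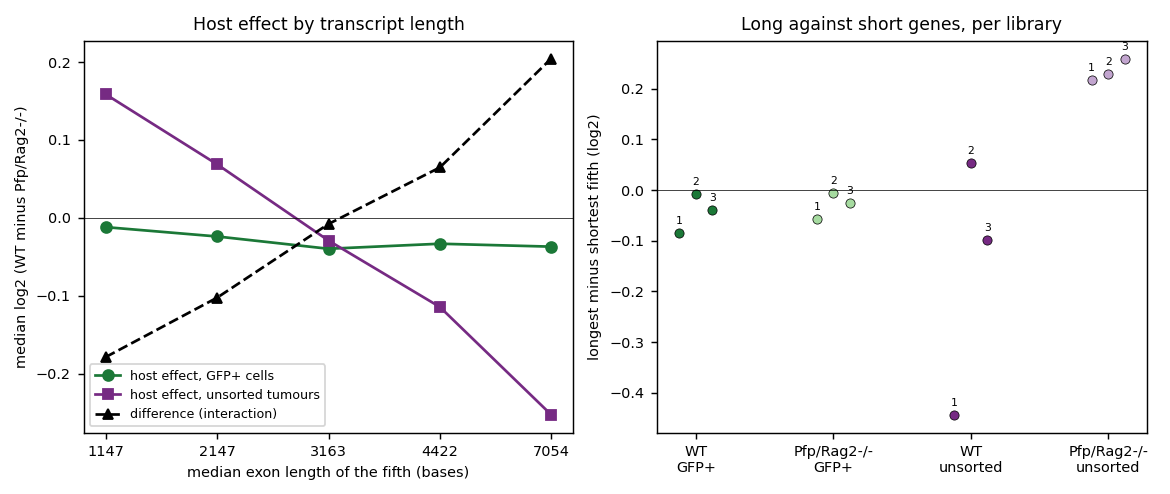
Left, median host effect in GFP+ cells, in unsorted tumours and their difference (y axis, log2) over 5 equal groups of genes by exon length (x axis, bases); right, the level of the longest against the shortest group in each library (y axis, log2), numbered by replicate. The unsorted line falls from 0.16 to -0.25 while the GFP+ line stays near 0. WT unsorted library 1 is lowest at -0.44, and the Pfp/Rag2-/- unsorted libraries are highest at 0.22 to 0.26.

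With the trend over length removed from each library, an alternative added once the values were known, limma called 21 positive (0.13%) and 15 negative genes (0.0931%), 29 of which were among the 151. Irs1, Plag1, Il33, Klf9, Dusp4 and Nav2 were still called positive, and Ptn, Fhl1, Slc43a2, Vwa1, Col6a2 and Manf negative. The calls of Fosb (1.86, adjusted p = 0.0714), Egr1 (1.24, 0.0765), Mmp13 (-4.12, 0.0765) and Cfp (-1.03, 0.0885) were lost with estimates close to those before. Those of Trip11 (0.50, 0.0765), Hmcn1 (0.79, 0.144) and Clock (0.26, 0.364) were lost with smaller estimates. Library preparation and RNA integrity values are not used here, and their part in the length trend was not tested.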

How the data were processed

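The values as deposited by the authors are a signal: normalized counts per gene, whole reads over 1 size factor for each library. STAR 2.5.2b, DESeq2 and the GRCm38 build appear in the submitters' processing notes. Read counter, strand setting and annotation are not given in the sources used, so reads of overlapping genes may be shared. In all 12 columns 100% of values were whole multiples of 1 read within 0.05 reads, so read counts were recovered. 1 read was worth 0.871 to 0.958 and size factors were 1.04 to 1.15. Names and coordinates came from GENCODE vM21 (GRCm38), which matched 48435 of 48795 genes. Exon length is the union of a gene's exons.

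Genes that reached 10 in 3 or more of the 12 libraries were fitted with 1 mean per group on log2(value + 1) by limma 3.58.1 (eBayes with trend, two-sided) in R 4.3.3. All adjusted p-values named without a tool are from limma, with Benjamini-Hochberg adjustment over the 16161 genes. On recovered reads the quasi-likelihood test of edgeR 4.0.16 called 70 genes and DESeq2 1.42.0 called 1216. Other alternatives were another pseudocount, other filters, other scalings, robust and weighted fits, all 18 libraries, replicate blocks and leaving out libraries. The length and GC trends and the block in GFP+ libraries alone were added after the data were seen.

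Replicate numbers were taken as pairs in the GFP+ libraries only, because the deviations of all 3 same-numbered pairs correlated above 0.1 there (0.577, 0.454 and 0.121). The unlike-numbered pair of WT GFP+ library 2 and Pfp/Rag2-/- GFP+ library 3 correlated at 0.386, so the pairing of numbers 2 and 3 is uncertain. In unsorted libraries the same-numbered pairs stood at -0.194, 0.0974 and -0.350.

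Members and lists were chosen with earlier results of these data known. Named genes were taken among called genes with a proper symbol and a mean of at least 100 in the highest group: the 12 highest and 12 lowest interactions, and the 6 highest and 6 lowest with opposite called host effects. Added were up to 4 called genes on each side of each of 30 lists, other list members printed with a value, and the 2 targeted genes, Prf1 and Rag2. For 1 gene that the rule takes, single values are not reported here; it stays in the counts.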

Additional observations from a re-analysis of the deposited data

Results flagged for a closer look

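The test of the difference between the 2 host effects singled out 115 genes with a positive and 36 with a negative interaction. Among the named genes given here the positive values were 1.89 for Fosb, 1.66 for Irs1, 1.61 for Il33, 1.52 for Plag1, 1.48 for Klf9, 1.31 for Cry2, 1.31 for Egr1, 1.20 for Phactr1, 1.15 for Hmcn1, 1.11 for Dusp4, 1.07 for Zfpm2, 1.06 for Nav2, 1.06 for Bcl9l and 0.99 for Nav3. The negative values were -0.47 for Manf, -0.67 for Fam136a, -0.86 for Ccl25, -0.98 for Slc25a45, -1.05 for Cox17, -1.10 for Nectin4, -1.18 for Cfp, -1.22 for Col6a2, -1.24 for Vwa1, -1.33 for Slc43a2, -1.99 for Ptn, -2.93 for Mgp, -3.10 for Fhl1 and -4.19 for Mmp13.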

How the results depend on the processing

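No named gene changed sign under any alternative, and 474 of their alternative values stayed on the same side of the threshold while 395 lost the call. Positive and negative calls, 115 and 36, became 48 and 13 with no filter, 207 and 91 with a filter at 50, 54 and 22 with TMM factors, 35 and 10 with all 18 libraries in 1 fit, 50 and 20 with edgeR, 782 and 434 with DESeq2, 21 and 15 with the length trend removed, 30 and 19 with length and GC trends removed, and 2415 and 2040 with array weights. The estimation of those weights did not converge and gave WT unsorted library 3 a weight of 16.1. Quantile normalization gave 113 negative calls. Leaving out 1 library gave 0 to 685 positive and 0 to 420 negative calls, 2551 to 5309 host effect calls in GFP+ cells, and 3942 to 5858 in unsorted tumours. Without both GFP+ libraries numbered 1 there were 0 and 0 interaction calls, and 1918 host effect calls in GFP+ cells against 4009 in the full set. The cause of these shifts was not tested. Of the alternative values of list medians, 34 moved by more than 1 SD and 836 did not.

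As a replicate block, the number over all 12 libraries gave 23 negative calls, and the number in the GFP+ libraries alone 97. The number within each fraction gave 118 positive and 53 negative calls, 85 of them among the 151. Of the named genes, the GFP+ block ended the calls of Phactr1 and Ccl25, the block over 12 libraries those of 7 and the block within fraction those of 10, among them Cry2 (adjusted p = 0.0612 and 0.0662) and Mgp (0.0648 and 0.07). Beside the list genes given above, the GFP+ block added Tgfb1 (-1.32, adjusted p = 0.03) among immune evasion genes and Sox4 (0.68, 0.0493) among neural progenitor genes.

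Depth was at least 19172814 reads per library. Genes under 10 normalized counts, such as Neu4 in GFP+ cells, are limited by counting error.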
